A study of Mus musculus with 6 samples.

Results

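The proteasome genes of mouse haematopoietic stem cells were examined with regard to Irgm1, an interferon-induced GTPase whose older name is Lrg-47. The genes were taken by name: every gene whose single symbol in the platform annotation starts with Psma, Psmb, Psmc, Psmd, Psme or Psmg followed by a digit. This gave 48 of the 18194 genes that had a probe set with 1 symbol, and 26 of the 48 had more than 1 probe set, 99 in all. Each gene was read from the probe set with the highest mean over the 6 arrays. Psmb8, Psmb9, Psmb10 and Psme1 form the immunoproteasome group, and the remaining 44 genes form the comparison group. The activator subunit Psme2 belongs with the first group, but its 1 probe set also lists a second symbol, so it was not counted and is not described here. Among the 44 genes, Psmc3ip and Psme3ip1 carry the name of a subunit that their protein binds and are not subunits themselves.

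RNA came from bone marrow stem cells of C57BL/6 mice aged 8 to 12 weeks that were kept free of specific pathogens. The 3 arrays of the first group were labelled Lrg-47-/- (Irgm1-/-) and the 3 of the second wild type, and no treatment or further allele is named for either. The cells were sorted by the efflux of a Hoechst dye (side population) together with Sca-1, c-kit and lineage stains, and the RNA was amplified in 2 rounds of T7 transcription. Whether each array had its own animals is not stated in the labels, so the p-values measure the spread between these samples, which may be technical. The comparison asks which transcripts differ in stem cells without Irgm1.

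The proteasome is the large protease that degrades proteins tagged with ubiquitin. Its core particle is a barrel of stacked rings: the outer rings are built of alpha subunits, and the inner rings of beta subunits, of which Psmb5, Psmb6 and Psmb7 cut proteins. A regulatory particle of ATPases (Psmc genes) and other subunits (Psmd genes) caps the barrel, recognises ubiquitin and unfolds the substrate. Interferons, above all interferon gamma, induce Psmb8, Psmb9 and Psmb10, which replace Psmb5, Psmb6 and Psmb7 in newly built particles. The resulting immunoproteasome favours peptides suited to MHC class I presentation, and the ring-shaped activator of Psme1 and Psme2 is induced alongside. Blood cells express immunoproteasome subunits without added interferon as well.

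The start regions of these genes are shown because the inducible and the constitutive subunits are known to answer to different factors. Sequences are from RefSeq, assembly GRCm38.p6, and 40 of the 48 genes had an entry, with 43 promoters of 250 bases before to 50 bases after the start. Psmb9, Tap1, Psmb8 and Tap2 lie next to one another in that order on chromosome 17, and Psmb9 and Tap1, a subunit of the peptide transporter of the MHC class I route, are read in opposite directions from a shared stretch. The first sequence is that stretch, chr17:34187331-34187555, read on the Psmb9 strand (minus), all in lower case because none of the motifs searched below was found in it. The second is the region before the start of Psmb8, chr17:34197945-34198194 on the plus strand, with a GAS core match in capitals.
Psmb9 and Tap1, shared stretch: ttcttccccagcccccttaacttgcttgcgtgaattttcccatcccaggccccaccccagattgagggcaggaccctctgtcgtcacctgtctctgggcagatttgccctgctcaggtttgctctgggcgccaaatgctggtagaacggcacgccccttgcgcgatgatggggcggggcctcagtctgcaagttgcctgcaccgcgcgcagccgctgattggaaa
Psmb8, before the start: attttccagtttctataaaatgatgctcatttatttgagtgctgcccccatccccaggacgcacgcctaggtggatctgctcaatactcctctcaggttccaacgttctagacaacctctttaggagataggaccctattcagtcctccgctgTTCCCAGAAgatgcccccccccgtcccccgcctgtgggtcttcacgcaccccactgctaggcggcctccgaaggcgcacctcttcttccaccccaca

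3 short motifs were searched on both strands: the ISRE core GAAANNGAAA of interferon-regulated genes, the GAS core TTCNNNGAA bound by STAT factors, and the ARE core TGACNNNGC bound by the factors Nfe2l1 and Nfe2l2, known to drive constitutive proteasome genes. The ISRE core was found in 5 of the 40 genes (12.5%), namely Psmb3, Psmd4, Psmd9, Psme1 and Psmg4, against 3.44% of all 32851 promoters in the table. A GAS core was found in 3 genes (7.5%), namely Psmb8, Psmd2 and Psmg1, against 8.3% of all promoters. The ARE core was found in 6 genes (15%), namely Psmb5, Psmb6, Psmc6, Psmd12, Psmd9 and Psme4, against 12.4%. The match in Psmb8 lay 97 bases before its start. For comparison with Psmb8, 3 further matches are printed in capitals with their flanks on the gene's strand. They are the ISRE core of Psme1, 9 bases after its start on the opposite strand (chr14:55578493-55578522, plus), and the ARE cores of Psmb5, 47 bases before (chr14:54618024-54618052, minus), and of Psmb6, 9 bases before (chr11:70525338-70525366, plus).
Psme1, ISRE core: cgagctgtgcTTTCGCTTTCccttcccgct
Psmb5, ARE core: cgtgaagttgTGACGTCGCggcgttgcca
Psmb6, ARE core: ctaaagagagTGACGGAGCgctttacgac

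The 4 immunoproteasome genes were higher on every array labelled Irgm1-/- than on any wild-type array, and 1 of them, Psmb9, passed the test. The constitutive catalytic subunits Psmb5 and Psmb6 had nearly equal means in both groups. Psmb7, also constitutive, had overlapping groups and did not pass. Its log2 difference of 0.44 was larger than those of Psmb8 (0.37) and Psme1 (0.32). Of the other proteasome genes, 37 of 43 lay above their wild-type mean, and 0 of 43 tested passed. Their median log2 difference was 0.15, against 0.47 for the 4 immunoproteasome genes. Over all probe sets tested, 11.5% had all knockout-labelled arrays above all wild-type arrays. The share called higher was 0.664%, and 51.5% had a difference above 0. Values are log2 expression values, so a difference of 1 is a doubling, and differences are knockout-labelled minus wild type with the standard error (SE). Adjusted p-values are from limma with Benjamini-Hochberg adjustment over all 22580 probe sets tested, with 0.05 as the threshold.

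The arrays were alike in overall level, with medians of 3.67 to 3.73. The highest of the bacterial control probe sets, which mark the level of absent transcripts, lay at 3.00 to 3.18. The probe set of Irgm1 read 7.68, 8.58 and 7.84 in the knockout-labelled group and 8.39, 8.57 and 8.36 in the wild-type group (adjusted p = 0.475 in limma). Which part of the gene was deleted is not given in the labels, so this probe set does not check the genotype. Of 10 stem cell markers, 8 were on the array, all above the bacterial controls; 0 passed the limma test, but 7 of 8 were below 0, with a median of -0.35. Of these markers 5 had an unadjusted p under 0.05: Kit (-0.82), Gata2 (-0.83), Procr (-0.37) and Hlf (-0.48) on the lower side and Slamf1 (1.43) on the higher. Of all probe sets tested, 16.4% reached this p in limma. T and NK cell markers also differed: 5 of 9 tested were called higher in the knockout-labelled group and 0 lower, and all 9 lay above 0. The 5 called were Ccl5 (4.93), Klrd1 (3.97), Ms4a4b (3.71), Gzmb (3.69) and Thy1 (3.63), while Nkg7 (2.61) was not called. Each of these 5 read higher on all 3 knockout-labelled arrays than on any wild-type array, as did 11.5% of all probe sets tested. Over all probe sets tested, 0.664% were called higher and 0.722% lower. The mean over 12 T and NK cell genes was 6.61, 6.36 and 8.23 against 4.77, 4.39 and 4.81. The T cell genes Cd3d and Cd3g read 2.44 to 2.92 in the wild-type group and 3.32 to 7.06 in the other, highest on replicate 3. Cd4 was at background on all 6. These genes were too dim on most arrays to be tested. Among tested T cell genes, Cd3e read 4.77, 4.68 and 6.56 against 4.47, 4.66 and 4.58. Cd8a read 3.74, 3.81 and 6.21 against 3.76, 3.71 and 3.66. Cd247 read 3.42, 3.62 and 4.82 against 3.66, 3.94 and 3.69. Thus Cd3e, Cd8a and Cd247 were clearly raised on knockout-labelled replicate 3 alone, and none of them was called. Markers of cycling cells had means of 10.43, 10.46 and 10.20 against 9.29, 9.15 and 9.25. All 4 lay above 0, and 2 of 4 were called higher. Of the tested markers of B cells (2), myeloid cells (3) and erythroid cells (1), 0 were called, with 1 myeloid marker at an unadjusted p under 0.05. The 1 tested stroma marker, Col1a2, was called lower. In the bulk RNA of sorted cells, more cells of a type and more RNA per cell cannot be told apart.

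Psmb9 encodes the inducible counterpart of Psmb6 and is encoded in the MHC class II region. It read 10.79, 10.95 and 10.90 in the knockout-labelled group and 10.01, 10.19 and 9.96 in the wild-type group. The groups lay far apart relative to the spread within each, which had an SD of 0.08 and 0.12 (n = 3 each). The log2 difference was 0.82 (SE 0.13, 95% interval 0.52 to 1.13), or 1.77-fold, with adjusted p = 0.0345 in limma. Psmb9 was thus the 1 gene of the 47 tested that was called higher, and 0 were called lower. Among all probe sets tested, 0.664% were called higher and 0.722% lower, so the single call is read as a result about Psmb9 and not about the proteasome genes as a set. The call was lost without any 1 of the 6 arrays, with adjusted p of 0.0642 to 0.132, while the difference stayed between 0.78 and 0.89.

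Psmb10 encodes the inducible counterpart of Psmb7. Its values were 9.83, 10.19 and 10.20 in the knockout-labelled group and 9.51, 9.65 and 9.38 in the wild-type group. Knockout-labelled replicate 1 was the lowest of its group and still lay above all wild-type arrays. The difference of 0.56 (SE 0.16, 1.48-fold) did not pass, with adjusted p = 0.161 in limma.

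Psmb8, the inducible counterpart of Psmb5, read 11.05, 11.18 and 11.19 on the knockout-labelled arrays against 10.79, 10.77 and 10.74. The wild-type arrays were nearly identical, with an SD of 0.03. The difference was 0.37 (SE 0.11, 1.29-fold, adjusted p = 0.182 in limma), and the second probe set of Psmb8 gave 0.23 (SE 0.14).

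Psme1 encodes the alpha subunit of the interferon-induced activator ring that opens the core particle. It read 11.63, 11.71 and 11.82 in the knockout-labelled group and 11.48, 11.47 and 11.25 in the wild-type group. The groups did not overlap, and the difference was 0.32 (SE 0.12, 1.25-fold, adjusted p = 0.259 in limma).

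**Figure D1:**
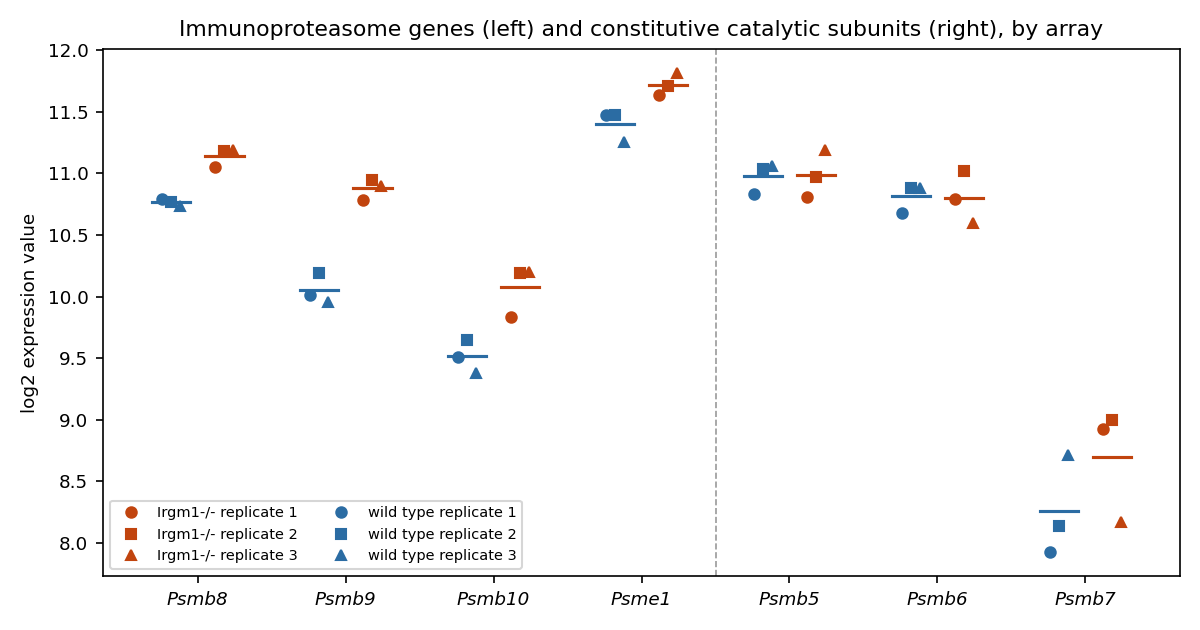
Log2 expression values (vertical axis) of the 4 immunoproteasome genes and of the 3 constitutive catalytic subunits on the 6 arrays; each point is 1 array, its shape the replicate number, and the short lines are group means. The 4 genes on the left have all knockout-labelled arrays above all wild-type arrays, whereas the groups overlap for the 3 genes on the right.

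Psmb5, the constitutive subunit with chymotrypsin-like activity, read 10.81, 10.97 and 11.19 in the knockout-labelled group and 10.83, 11.04 and 11.06 in the wild-type group. The groups overlapped along their whole range, with a difference of 0.01 and a 95% interval of -0.32 to 0.35. Psmb6, with caspase-like activity, read 10.79, 11.02 and 10.59 against 10.68, 10.88 and 10.88. Its difference was -0.01, with an interval of -0.36 to 0.34. These intervals leave room for changes as large as the one measured for Psme1, so they do not show that Psmb5 and Psmb6 were equal in the groups. The signs of both differences turned under some alternatives.

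Psmb7, the constitutive subunit with trypsin-like activity, varied most of the 3. It read 8.92, 9.00 and 8.17 in the knockout-labelled group and 7.93, 8.14 and 8.72 in the wild-type group. Replicate 3 of each group went against the other arrays of its group, and the difference of 0.44 (SE 0.30) did not pass, with adjusted p = 0.51 in limma. The difference was 0.29 when knockout-labelled replicate 2 was left out and 0.70 when replicate 3 of that group was. Among the wild-type arrays, leaving out replicate 1 gave 0.27 and leaving out replicate 3 gave 0.67.

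Each inducible subunit was then set against the constitutive subunit it replaces within each array. Levels of different probe sets are not on a common scale, so only the change of this within-array difference between arrays is read. Psmb9 minus Psmb6 was -0.00, -0.07 and 0.30 in the knockout-labelled group and -0.67, -0.69 and -0.92 in the wild-type group. The groups were apart, and the mean difference was 0.84, a 1.79-fold shift of the ratio. Psmb8 minus Psmb5 was 0.24, 0.21 and -0.00 against -0.03, -0.27 and -0.32. These groups were also apart, by a mean of 0.36, but the gap between knockout-labelled replicate 3 and wild-type replicate 1 was small. Psmb10 minus Psmb7 was 0.91, 1.20 and 2.03 against 1.59, 1.51 and 0.67. The groups of this last pair overlapped, with a mean difference of 0.12, and replicate 3 of each group, where Psmb7 departed from the other arrays, was the extreme.

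**Figure D2:**
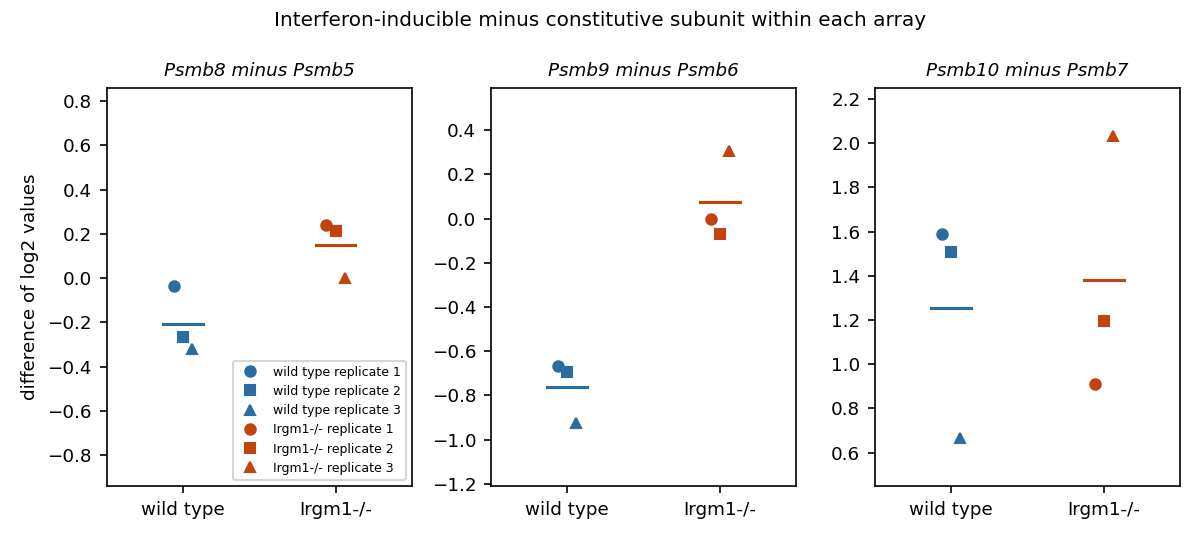
Within-array difference between the log2 values of an inducible subunit and of its constitutive counterpart (vertical axis) by group; each point is 1 array, each short line a group mean, and the 3 panels span the same height. The groups are apart for Psmb8 minus Psmb5 and for Psmb9 minus Psmb6 and overlap for Psmb10 minus Psmb7.

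Of the 47 genes tested, 13 (27.7%) had all knockout-labelled arrays above all wild-type arrays and 1 had them all below. Over all probe sets tested these shares were 11.5% and 11%. The 4 immunoproteasome genes were among the 13, and the other 9 made up 20.9% of the 43 remaining genes. A difference above 0 was found in 41 of the 47 genes (87.2%), against 51.5% of all probe sets tested, whose median difference was 0.01. An unadjusted p under 0.05 was reached by all 4 immunoproteasome genes and by 5 of the 43 others (11.6%), against 16.4% of all probe sets, and all 9 were higher in the knockout-labelled group. The small excess over the wild-type mean was thus spread over many of the other genes. Their share at that p was below the background only with both directions counted together, as in the 16.4%. The share of all probe sets that were higher at that p was not computed, so the higher side alone is not compared. Genes of 1 complex are measured on the same arrays and are not independent of one another.

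**Figure D3:**
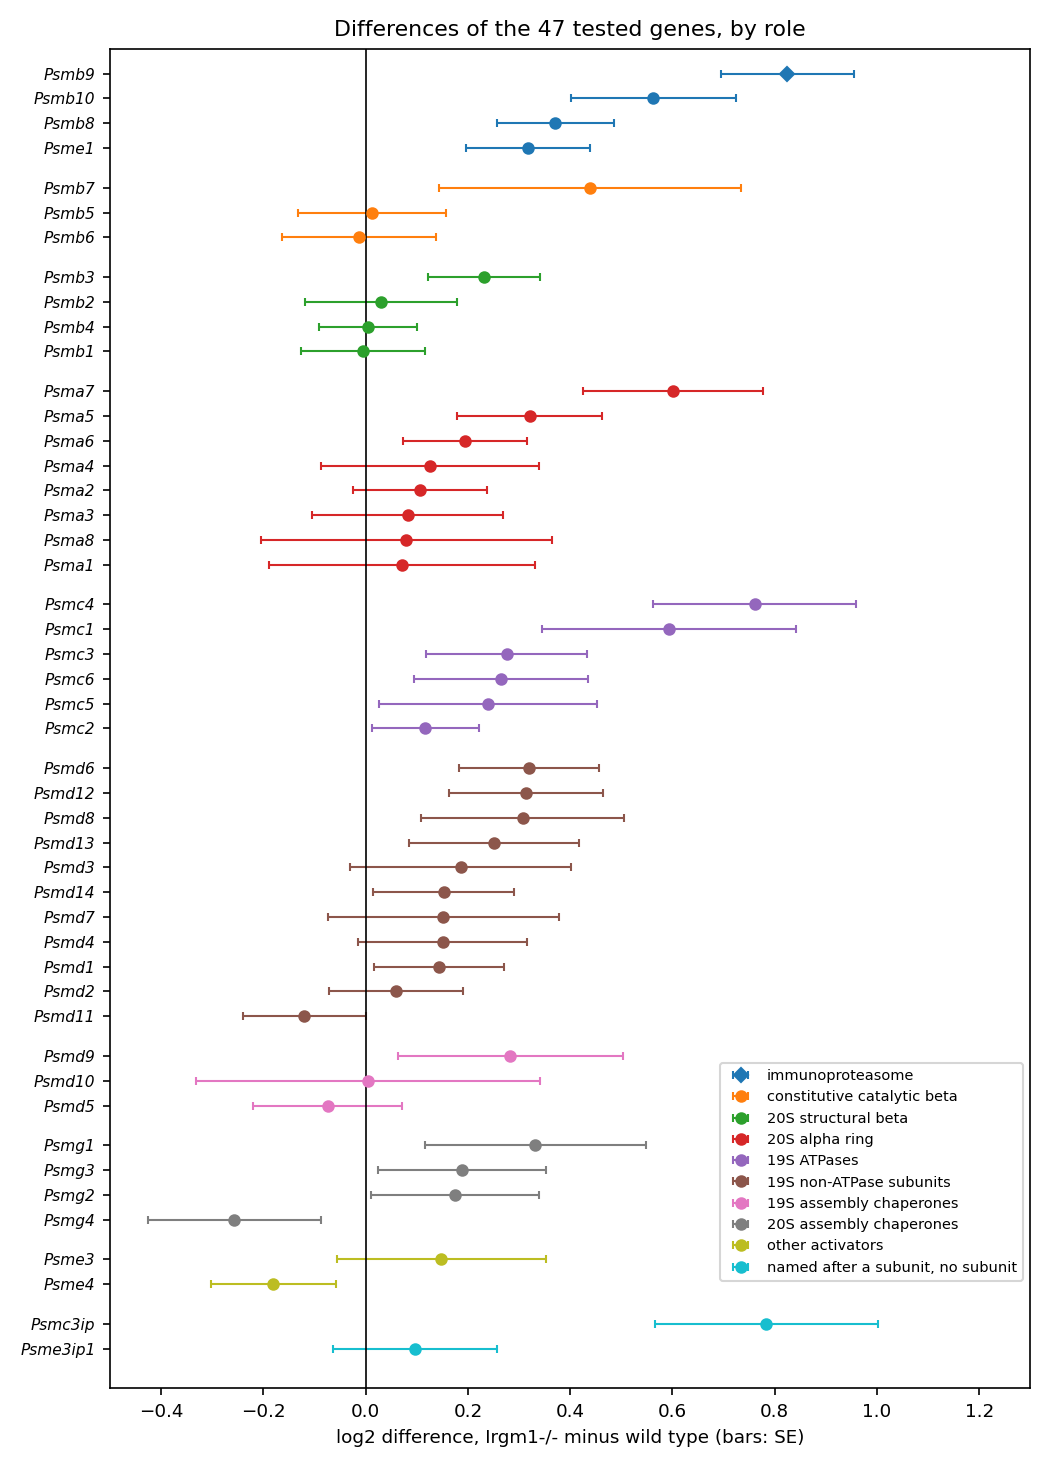
Log2 differences, knockout-labelled minus wild type (horizontal axis), of the 47 tested genes grouped by role; points are estimates, bars are SE, and the diamond marks Psmb9, the gene with adjusted p under 0.05. The 4 immunoproteasome genes and all genes of the alpha ring and the ATPase ring lie above 0, and Psmb5, Psmb6 and most structural beta subunits lie close to it.

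The alpha ring, which gates the core particle, is built from the Psma genes, and 8 of 8 differences were above 0 with a median of 0.12, but 0 passed in limma and 1 had an unadjusted p under 0.05. Psma7 read 10.47, 10.42 and 10.01 in the knockout-labelled group and 9.53, 9.86 and 9.70 in the wild-type group. The groups did not overlap, and the difference was 0.60 (SE 0.18, 1.52-fold, adjusted p = 0.166 in limma). A second probe set of Psma7 gave 0.55. Psma5 read 11.95, 11.87 and 11.51 against 11.48, 11.46 and 11.43. Its knockout-labelled replicate 3 was only just above the wild-type arrays, and the difference was 0.32 (SE 0.14, adjusted p = 0.318 in limma). Its other tested probe sets gave 0.20 and -0.38, and the mean of all its probe sets gave 0.05. In the remaining 6 genes, Psma1, Psma2, Psma3, Psma4, Psma6 and the testis subunit Psma8, the groups overlapped, with differences of 0.07 to 0.19.

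The structural beta subunits complete the inner rings without cutting proteins. Psmb3 read 12.27, 12.09 and 12.23 in the knockout-labelled group and 11.96, 11.89 and 12.06 in the wild-type group. The groups were apart by a narrow margin, with a difference of 0.23 (SE 0.11, adjusted p = 0.344 in limma). Psmb2 read 9.00, 9.21 and 9.06 against 9.18, 8.94 and 9.07, a difference of 0.03 (SE 0.15). Psmb1 and Psmb4 had equally small differences of -0.01 and 0.01, although a second probe set of Psmb4 gave 0.40. The thymus-specific catalytic subunit Psmb11 read 2.25 to 2.32 on all arrays, under the bacterial controls, and was not tested.

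The 6 ATPases form the ring that unfolds substrates and feeds them into the core, and all 6 differences were above 0, with a median of 0.27; 0 passed in limma and 2 had an unadjusted p under 0.05. Psmc4 read 10.82, 10.66 and 10.39 in the knockout-labelled group and 9.62, 10.21 and 9.75 in the wild-type group. The groups did not overlap, and the difference of 0.76 (SE 0.20, 1.69-fold, adjusted p = 0.132 in limma) was the largest of the subunits after Psmb9. The second probe set of Psmc4 gave 0.26, so the size depended on the probe set. Psmc1 read 10.38, 10.68 and 10.33 against 9.92, 10.32 and 9.36. Wild-type replicate 3 was the low array of Psmc1, and knockout-labelled replicate 3 barely exceeded wild-type replicate 2. The difference was 0.59 (SE 0.25, adjusted p = 0.296 in limma), but it was 0.34 without wild-type replicate 3. With the mean of both probe sets it was 0.32, but the second probe set read 2.28 to 2.37, under the bacterial controls, and was not tested. Psmc3 also had groups apart, with a difference of 0.28, while Psmc2, Psmc5 and Psmc6 overlapped at 0.12 to 0.27.

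The non-ATPase subunits of the regulatory particle bind ubiquitin, remove it from substrates and hold the particle together. Of 11 Psmd genes of this kind, 10 had differences above 0, with a median of 0.15; 0 passed in limma and 1 had an unadjusted p under 0.05. Psmd6, a lid subunit, read 10.81, 10.72 and 10.76 on the knockout-labelled arrays against 10.24, 10.59 and 10.50. The knockout-labelled values were tight and above all wild-type ones, with a difference of 0.32 (SE 0.14, adjusted p = 0.304 in limma). Psmd12, another lid subunit, read 10.41, 10.49 and 10.29 against 10.11, 10.27 and 9.88, so the groups were separated by a narrow step. Its difference was 0.31 (SE 0.15, adjusted p = 0.35 in limma). Psmd11, of the lid as well, was the 1 gene of this kind below 0, at -0.12. The rest, Psmd1, Psmd2, Psmd3, Psmd4, Psmd7, Psmd8, Psmd13 and the deubiquitinase Psmd14, overlapped between the groups at 0.06 to 0.31.

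Chaperones that assemble the particles showed no common direction. Psmd9, a chaperone of the ATPase ring, read 8.82, 8.20 and 8.39 against 8.39, 8.25 and 7.92, a difference of 0.28 (SE 0.22) that shrank to 0.11 when knockout-labelled replicate 1 was left out and to 0.15 when wild-type replicate 3 was. Psmd5, of the same kind, read 8.41, 8.53 and 8.53 against 8.51, 8.63 and 8.55, a difference of -0.07 (SE 0.15). Both pairs of groups overlapped, as did those of Psmd10. Psmg1, which guides the alpha ring, read 8.47, 8.60 and 8.64 in the knockout-labelled group and 7.85, 8.26 and 8.60 in the wild-type group. The wild-type arrays of Psmg1 were spread widely, and the difference was 0.33 (SE 0.22, adjusted p = 0.495 in limma). It shrank to 0.14 when wild-type replicate 1 was left out and grew to 0.51 when wild-type replicate 3 was. Psmg4, another core chaperone, read 5.29, 5.30 and 5.44 against 5.41, 5.55 and 5.84, a difference of -0.26 (SE 0.17) that was -0.14 without wild-type replicate 3. With the mean of its probe sets it was -0.11, but its second probe set, at 2.86 to 3.00, was too dim to be tested. Psmg2 and Psmg3 lay at 0.17 and 0.19, with overlapping groups.

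The activators that interferon does not induce gave small differences of either sign. Psme4, a large activator found in the nucleus, read 10.62, 10.78 and 10.72 in the knockout-labelled group and 10.99, 10.83 and 10.84 in the wild-type group. It was the 1 gene with all knockout-labelled arrays below the wild-type arrays, at -0.18 (SE 0.12, adjusted p = 0.511 in limma). Its other tested probe sets ranged from -0.61 to 0.54 and so did not share a direction, and the mean of all of them gave -0.01. Psme3, the nuclear relative of Psme1, read 7.80, 8.12 and 8.33 against 7.80, 7.84 and 8.17, a difference of 0.15 (SE 0.20). It turned to -0.07 with the mean of its probe sets, which include an untested set at 3.05 to 3.17. When 1 array was left out it ranged from 0.02 to 0.29. Over all genes, 26 of 36 other tested probe sets had the sign of the probe set reported, and 0 of the 36 were called.

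Of both genes named after a subunit, Psmc3ip, a factor of meiotic recombination, read 7.50, 6.82 and 7.05 in the knockout-labelled group and 6.25, 6.30 and 6.47 in the wild-type group. The groups did not overlap, and the difference was 0.78 (SE 0.22, 1.72-fold, adjusted p = 0.151 in limma), but a second probe set gave 0.09 and the mean of both 0.44. Psme3ip1, which binds Psme3, read 9.18, 9.49 and 9.46 against 9.36, 9.37 and 9.12, a difference of 0.10 (SE 0.16) that ranged from 0.02 to 0.20 when 1 array was left out.

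The arrays themselves were compared by their mean deviation from the wild-type mean over the genes of a group. For the 4 immunoproteasome genes it was 0.39, 0.57 and 0.59 in the knockout-labelled group and 0.02, 0.09 and -0.10 in the wild-type group. For the 43 other tested genes it was 0.18, 0.25 and 0.13 against -0.09, 0.05 and 0.04. The groups were apart in both, but the step was larger for the immunoproteasome genes. The first mean minus the second was 0.22, 0.33 and 0.46 against 0.11, 0.04 and -0.15, so the excess of the immunoproteasome genes was present on each knockout-labelled array. It was largest on replicate 3, which also had the highest T and NK cell marker mean. Without that array the Psmb9 difference was 0.81, which no longer passed (adjusted p = 0.0642 in limma), and the median of the 4 genes was 0.42. Knockout-labelled replicates 1 and 2 also had raised T and NK cell marker means, 6.61 and 6.36 against 4.39 to 4.81 in the wild-type group. Leaving out replicate 3 therefore cannot separate these markers from the difference. The part of the stem cell, T and NK cell and cycling markers in these differences was not tested.

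**Figure D4:**
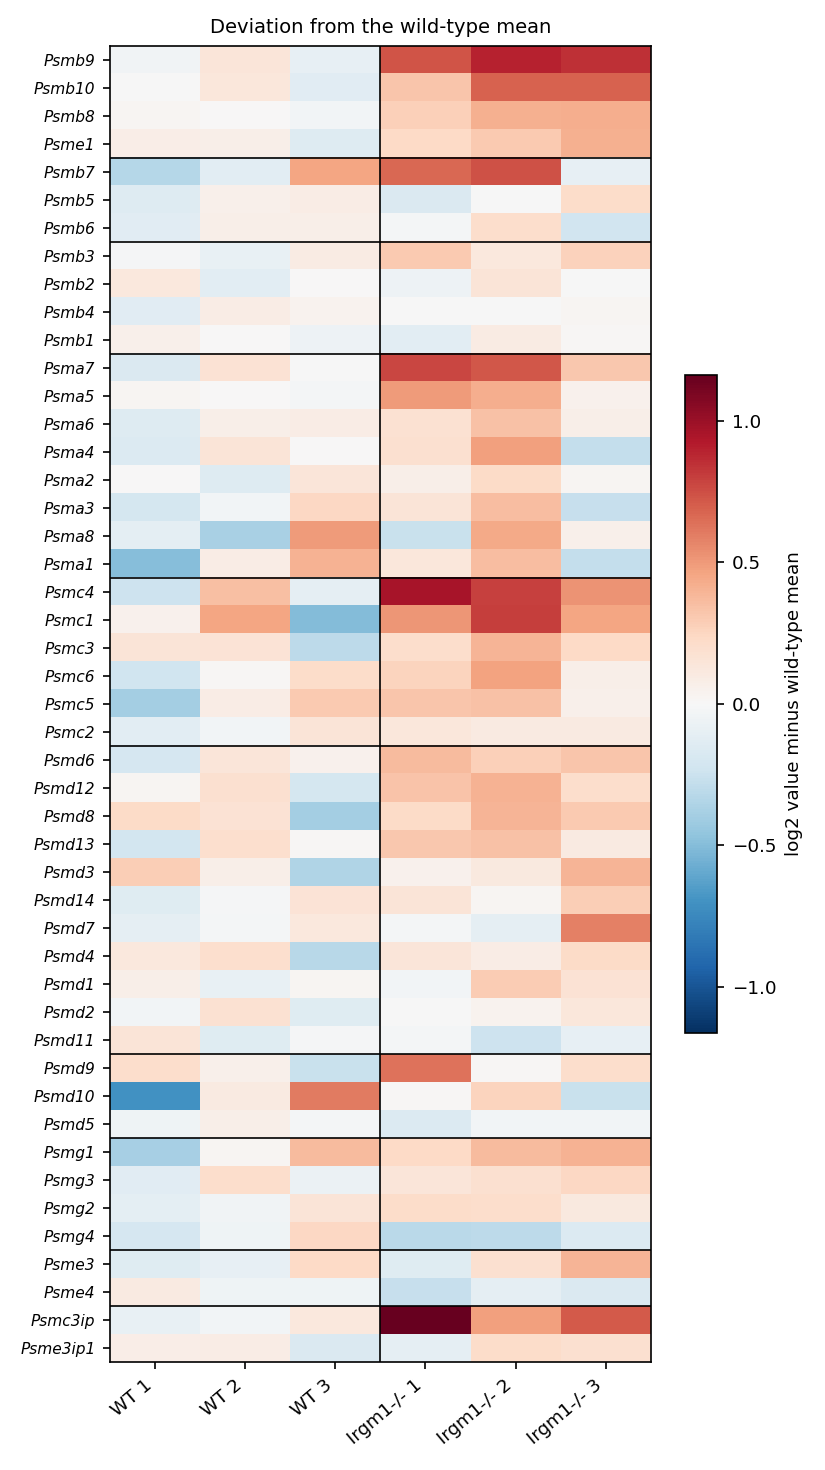
Deviation of each log2 value from its gene's wild-type mean (colour) for the 47 tested genes (rows, grouped by role as in the plot of differences) on the 6 arrays (columns). The top 4 rows, the immunoproteasome genes, are raised on all 3 knockout-labelled arrays, and the alpha ring rows are weaker on knockout-labelled replicate 3.

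The alpha ring genes were also followed from array to array. Its mean deviation was 0.21, 0.42 and -0.04 in the knockout-labelled group and -0.16, -0.01 and 0.17 in the wild-type group, so the groups overlapped. Knockout-labelled replicate 3 was the lowest of its group in 7 of the 8 alpha ring genes, and wild-type replicate 1 in 5 of 8. The actin control gap (its 3' probe set minus its 5' one), which widens as the RNA covers less of each transcript, was 2.86, 2.81 and 3.56 in the knockout-labelled group and 3.16, 3.16 and 2.57 in the wild-type group. Knockout-labelled replicate 3, with the widest gap, had the lowest alpha ring mean of its group, and wild-type replicate 3, with the narrowest, had the highest of its own. The part of this gap in the alpha ring values was not tested. The 5' control probe set for 18S ribosomal RNA did separate the groups, at 12.05, 12.47 and 11.20 in the knockout-labelled group and 11.15, 10.05 and 9.31 in the wild-type group. It was thus higher in the same group as the immunoproteasome genes, and its part in the differences was not tested. The immunoproteasome mean deviation was 0.39, 0.57 and 0.59 on the knockout-labelled arrays, at gaps of 2.86, 2.81 and 3.56. With the gap as a covariate, chosen after seeing the data, Psmb9 gave 0.81 (adjusted p = 0.0299 in limma). The part of the gap in the immunoproteasome values was not tested.

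**Figure D5:**
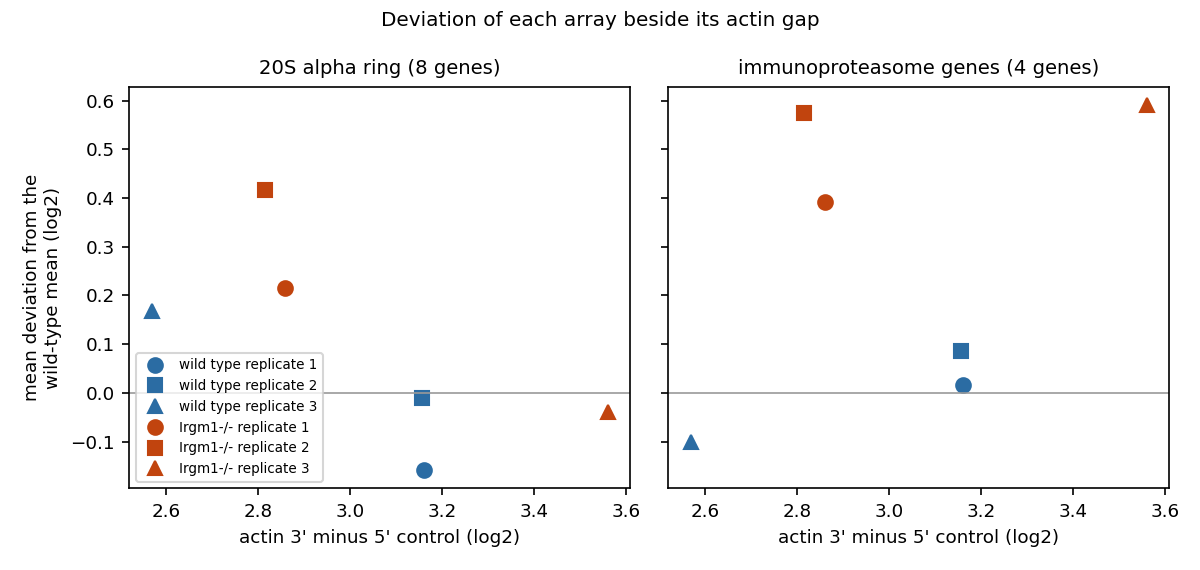
Mean deviation from the wild-type mean (vertical axis, log2) against the actin control gap (horizontal axis, log2: 3' minus 5' probe set) for the alpha ring genes (left) and the immunoproteasome genes (right); each point is 1 array. On the left, knockout-labelled replicate 3 has the widest gap and the lowest value of its group, and wild-type replicate 3 the narrowest gap and the highest value of its own. On the right, the knockout-labelled arrays lie at 0.39, 0.57 and 0.59, at gaps of 2.86, 2.81 and 3.56.

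The interferon route that induces the immunoproteasome was followed in a list of receptors, kinases, transcription factors and antigen presentation genes, of which 16 of 17 were tested. Of these, 0 were called in either direction by limma and 3 had an unadjusted p under 0.05. Of the 16, 8 were above 0 and 8 below, and the median difference was 0.04, against 0.01 for all probe sets. Nlrc5, a transactivator of MHC class I genes, read 9.99, 10.10 and 10.74 in the knockout-labelled group and 9.71, 9.45 and 8.82 in the wild-type group. The groups were apart, with the highest value on knockout-labelled replicate 3 and the lowest on wild-type replicate 3. The difference was 0.95 (SE 0.28, adjusted p = 0.177 in limma), and with the actin gap as a covariate it was 0.82 and passed (adjusted p = 0.0414). Over all alternatives the adjusted p of Nlrc5 ranged from 0.0414 to 0.364.

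Tap1, which shares the printed stretch with Psmb9, read 10.25, 10.57 and 10.95 in the knockout-labelled group and 10.11, 9.93 and 9.08 in the wild-type group. Its groups were apart too, in the same order of arrays as Nlrc5, with a difference of 0.88 (SE 0.30, adjusted p = 0.218 in limma). The size depended on the probe set and on 1 array: the difference was 0.25 with the mean of its 4 probe sets and 0.57 without wild-type replicate 3. Tap2, the other subunit of the transporter and the neighbour of Psmb8, had a difference of -0.18 (SE 0.20). Ifnar1, a chain of the type I interferon receptor, read 8.99, 8.56 and 8.00 against 8.19, 7.69 and 7.58. These groups overlapped, and the difference was 0.70 (SE 0.29, adjusted p = 0.291 in limma), or 0.46 without knockout-labelled replicate 1. The interferon-induced factor Irf1 (-0.07) and the MHC class I light chain B2m (-0.06) had small differences.

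A further list held other genes around the proteasome, such as ubiquitin-activating enzymes, shuttle factors and regulators of proteasome genes. Of its 30 genes 21 were tested, with 0 higher, 1 lower and a median of -0.09. The gene that fell was Zfand5, a zinc finger protein that binds ubiquitin and the proteasome. It read 12.82, 12.85 and 12.72 in the knockout-labelled group and 13.42, 13.45 and 13.59 in the wild-type group. The groups were well apart, with a difference of -0.69 (SE 0.10, adjusted p = 0.025 in limma). Zfand5 had 7 probe sets, of which 0 others were called, and with their mean the difference was -0.40 (adjusted p = 0.203). Without any 1 array its adjusted p was 0.0514 to 0.112, and in limma without the intensity trend it was 0.0632. Uba6, a ubiquitin-activating enzyme, read 10.28, 10.09 and 10.17 against 10.34, 10.53 and 11.12, a difference of -0.48 (SE 0.21, adjusted p = 0.312 in limma). With the mean of its 5 probe sets the direction turned (0.04), and without wild-type replicate 3 the difference was -0.26. Akirin2, which brings proteasomes into the nucleus, read 9.51, 9.94 and 9.56 against 9.93, 10.00 and 10.23, a difference of -0.38 (SE 0.17, adjusted p = 0.321 in limma), or -0.17 with the mean of its probe sets.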

How the data were processed

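Values were log2 expression values per probe set, as deposited by the authors. Per the submitters' processing notes they come from GCRMA, a method that subtracts background by probe sequence, normalises across arrays and combines the probes of a set. The sources used here give no version or settings. Dim probe sets end in a narrow low band, and their folds rest on the background step. No further normalisation was applied.

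Probe sets above the array median in at least 3 of 6 arrays, without Affymetrix controls, were tested (22580 of 45101) with limma 3.58.1 (lmFit, eBayes with an intensity trend) in R 4.3.3. The 2-sided p-values were corrected by Benjamini-Hochberg over all probe sets tested. The fit was checked on simulated data. With 3 arrays per group, their number limits the precision.

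The genes and lists were chosen with earlier results of these data known. Named were the 4 immunoproteasome genes, the 3 constitutive catalytic subunits, every called gene, for each role the 2 smallest p and the largest difference, and from both pathway lists the called genes and the 3 smallest p. A few others appear after their values were seen: Irgm1, the stem cell markers, Col1a2, Tap2, Irf1, B2m and the T cell genes Cd3d, Cd3e, Cd3g, Cd247, Cd4 and Cd8a, and genes given only by a difference or range. The called T and NK cell markers and Nkg7 were also named after their values were seen.

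Alternatives were other filters, scaling by quantiles or medians, limma without the trend, with robust variances or with array weights, the replicate block, leaving out each array, other uses of the probe sets, a looser threshold and, added after seeing the data, the actin gap as a covariate.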

Additional observations from a re-analysis of the deposited data

How the results depend on the processing

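The single call among the proteasome genes, Psmb9, was lost (0 called higher) with no filter on dim probe sets (adjusted p = 0.0786), with the filter at the 25th percentile (adjusted p = 0.0573) and without any 1 array (0 in each of the 6 fits); fits without a filter adjust over more probe sets, and fits without an array have fewer samples. It was kept under the other alternatives except the replicate block. Replicate numbers are shared in the labels, but same-numbered arrays did not deviate together (correlations -0.11, -0.02 and -0.28), so the numbers do not pair them. With the replicate block 0 proteasome genes were called higher (Psmb9 adjusted p = 0.133), and the calls over all probe sets were 27 higher and 41 lower against 150 and 163. 0 proteasome genes were called lower in any setting. Zfand5 lost its call under the replicate block as well (adjusted p = 0.125). The median difference of the immunoproteasome genes stayed between 0.37 and 0.55 and that of the others between 0.12 and 0.20. These differences turned sign: Psmb5 to -0.0126 with median centring, -0.0239 with array weights and -0.00462 with the actin covariate, Psmb6 to 0.0596 with array weights and 0.0255 with the actin covariate, Psme3 to -0.0744 and Uba6, at -0.48 otherwise, to 0.0388 with the mean of all probe sets. Leaving out each array gave -0.0862 to 0.103 for Psmb5, -0.122 to 0.0901 for Psmb6 and -0.031 to 0.0895 for Psmb2. The cause of these reversals was not tested. All 47 tested genes lay above the array median on all 6 arrays in the probe set reported, and Psmb11 alone was not tested. The means of all probe sets of a gene also took in probe sets too dim to be tested, as for Psmc1, Psmg4 and Psme3. Calls over all probe sets ranged from 17 higher and 28 lower (without wild-type replicate 2) to 401 and 463 (array weights).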
